A study of Mus musculus with 20 samples.

Results

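The regions described here are stretches of open chromatin that were called in both adult libraries of Nestin-EGFP+ cells and not in the neonatal library. They were chosen by the deposited peak lists: a peak of the 12w library on chromosomes 1 to 19 was kept when it overlapped a 24w peak by at least 1 bp and overlapped no P5 peak. Of the 158269 autosomal 12w peaks, 30768 (19.4%) met this rule, and they are called adult-shared regions below. The other 12w peaks were 94446 found in all 3 libraries, 20056 shared with P5 but not 24w, and 12999 found at 12w only. Together the 3 libraries held 430515 autosomal peaks.

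Single-cell ATAC-seq, which counts cuts of a transposase in the open DNA of single nuclei, and single-cell RNA-seq were done on cells of the microdissected dentate gyrus of Nestin-EGFP mice at postnatal day 5 (P5), 12 weeks (12w) and 24 weeks (24w) of age. In these mice EGFP is driven by regulatory DNA of the Nestin gene, and viable EGFP-positive cells were sorted after papain dissociation, so that every library holds sorted cells in which this transgene was active, whatever their type. The mice were on a C57BL/6 background, and no treatment is given for these samples. There was 1 library per age and assay, and the number of mice pooled in a library is not given in the sources used here, so age, library and animal cannot be told apart and no test was made. Intervals below are exact 95% counting intervals and cover counting error only. The ATAC libraries gave 8788, 12638 and 6041 nuclei in order of age, with median counts in peaks of 25475, 20246 and 24553 per nucleus. They shared between 72 and 155 nucleus barcodes in pairs.

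Open chromatin marks the promoters of genes and, away from them, enhancers, which are short stretches of DNA bound by transcription factors that raise the transcription of a gene on the same chromosome. Promoters are open in many cell types, whereas enhancers tend to be open in few, so a list of enhancers reflects the cell types sampled. Nestin is an intermediate filament protein of neural stem cells, and its transgenes also label mural cells, which are the pericytes of capillaries and the smooth muscle cells of arterioles that wrap the endothelium, make its basement membrane and set vessel width.

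To show what these regions look like, 9 of them are printed, each 5′ to 3′ on the plus strand of GRCm38 (the mm10 build) over 300 bases around the centre of the peak or over the whole peak where it was shorter. The first 2 were among the 6 regions with the highest counts, the next 2 are high-count examples with a MEF2 and an EBF motif that were picked after the motif shares were seen, and the next 2 were among the 6 with the strongest lean to vascular-like nuclei. The last 3 were among the 6 with the strongest lean to neural and glial nuclei. Capitals mark every match to one of the 14 motifs searched.
Upstream of Saa1, chr7:46747041-46747340: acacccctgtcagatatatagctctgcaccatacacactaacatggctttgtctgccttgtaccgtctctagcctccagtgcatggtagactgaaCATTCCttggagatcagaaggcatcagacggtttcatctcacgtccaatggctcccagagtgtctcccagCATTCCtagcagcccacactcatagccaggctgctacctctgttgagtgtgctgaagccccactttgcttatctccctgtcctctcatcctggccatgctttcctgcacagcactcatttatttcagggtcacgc
Upstream of Atp13a5, chr16:29387645-29387944: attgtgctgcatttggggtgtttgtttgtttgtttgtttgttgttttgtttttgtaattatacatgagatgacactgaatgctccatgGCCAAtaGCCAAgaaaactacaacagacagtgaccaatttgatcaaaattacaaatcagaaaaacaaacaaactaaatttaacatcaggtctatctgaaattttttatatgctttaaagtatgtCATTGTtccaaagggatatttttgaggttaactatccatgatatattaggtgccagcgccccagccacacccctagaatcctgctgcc
Grm3 intron, chr5:9668500-9668799: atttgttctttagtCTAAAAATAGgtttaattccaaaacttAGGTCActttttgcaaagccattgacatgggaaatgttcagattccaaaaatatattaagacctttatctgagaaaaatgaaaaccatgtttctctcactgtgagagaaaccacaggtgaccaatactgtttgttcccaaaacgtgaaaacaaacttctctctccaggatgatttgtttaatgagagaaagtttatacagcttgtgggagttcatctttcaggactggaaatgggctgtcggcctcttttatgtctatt
Upstream of Spp1, chr5:104403413-104403712: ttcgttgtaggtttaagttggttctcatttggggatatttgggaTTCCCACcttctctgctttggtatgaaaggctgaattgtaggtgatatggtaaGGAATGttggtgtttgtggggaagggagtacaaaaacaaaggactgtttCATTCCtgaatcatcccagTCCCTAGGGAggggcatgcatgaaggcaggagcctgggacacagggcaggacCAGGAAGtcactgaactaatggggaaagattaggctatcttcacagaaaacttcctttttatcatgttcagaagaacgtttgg
Phldb2 intron, chr16:45752179-45752478: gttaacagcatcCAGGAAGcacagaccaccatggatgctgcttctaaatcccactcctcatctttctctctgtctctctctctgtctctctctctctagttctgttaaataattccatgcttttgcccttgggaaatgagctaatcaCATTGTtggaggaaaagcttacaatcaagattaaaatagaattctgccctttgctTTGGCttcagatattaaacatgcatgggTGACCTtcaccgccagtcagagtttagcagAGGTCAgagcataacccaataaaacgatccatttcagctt
Upstream of Tex36, chr7:133617717-133617890: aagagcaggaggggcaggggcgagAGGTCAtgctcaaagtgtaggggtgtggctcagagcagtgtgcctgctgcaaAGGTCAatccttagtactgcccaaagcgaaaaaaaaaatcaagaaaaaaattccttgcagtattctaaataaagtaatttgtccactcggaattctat
Adgrb3 intron, chr1:25686038-25686337: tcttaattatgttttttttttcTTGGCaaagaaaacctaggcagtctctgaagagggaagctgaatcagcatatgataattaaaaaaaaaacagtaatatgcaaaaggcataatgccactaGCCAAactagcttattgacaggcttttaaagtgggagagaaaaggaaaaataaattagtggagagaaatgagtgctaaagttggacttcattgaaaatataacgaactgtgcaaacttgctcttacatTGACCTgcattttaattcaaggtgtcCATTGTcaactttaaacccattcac
Lgi1 intron, chr19:38271235-38271534: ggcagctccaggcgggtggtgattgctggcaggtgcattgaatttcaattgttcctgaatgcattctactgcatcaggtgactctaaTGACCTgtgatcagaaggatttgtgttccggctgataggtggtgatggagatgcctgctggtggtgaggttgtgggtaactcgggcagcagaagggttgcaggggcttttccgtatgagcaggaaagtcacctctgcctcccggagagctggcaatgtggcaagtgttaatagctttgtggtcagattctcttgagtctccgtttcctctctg
Grin2b intron, chr6:135916243-135916542: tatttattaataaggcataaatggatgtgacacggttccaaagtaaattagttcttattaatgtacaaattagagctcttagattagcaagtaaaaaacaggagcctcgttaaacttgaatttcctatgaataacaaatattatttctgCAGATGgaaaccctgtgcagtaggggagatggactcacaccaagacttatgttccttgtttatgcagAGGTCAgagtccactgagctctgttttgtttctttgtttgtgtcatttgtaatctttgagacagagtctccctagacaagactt
In these letters the Grm3 stretch holds a MEF2 match and the ROR hexamer AGGTCA, the Spp1 stretch holds the palindrome TCCCNNGGGA of EBF factors between matches of other families, and the Tex36 stretch holds AGGTCA at 2 places. The Adgrb3 stretch holds 2 NFI cores, a ROR hexamer and a SOX match. A match is a run of letters and not a measured binding site.

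The adult-shared regions were short and weak beside the peaks found in all 3 libraries. At 12w their length had a median of 567 bp, with the 10th percentile at 248 bp and the 90th at 1398 bp, and a maximum of 9227 bp. Peaks found in all 3 libraries had a median of 1067 bp, peaks shared with P5 but not 24w had 361 bp, and peaks found at 12w only had 232 bp. In all, the adult-shared regions covered 22.5 Mb of the 176 Mb under 12w peaks. A region in the middle of the list held 30.4 counts per 1000 nuclei at 12w, with the 10th and 90th percentiles at 9.97 and 131, against a median of 86.9 for the peaks found in all 3 libraries. Per kilobase of peak the medians were 50.6 and 80.2 counts per 1000 nuclei, so part of the difference lay in length. A count was seen in 1.58% of the 12w nuclei for the median region.

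The 24w library held 30632 peaks that overlapped a 12w peak and no P5 peak. Their median length was 584 bp and their median level 45.2 counts per 1000 nuclei, with the 10th and 90th percentiles at 12.4 and 220, beside 66.4 for the 24w peaks found in all 3 libraries. The median 12w region was covered to 100% by 24w peaks, and 15814 regions (51.4%) were covered fully. For 781 regions (2.54%) the 24w peak that overlapped most was itself joined to a P5 peak, because peaks were called per library and a long 24w peak could reach beyond the 12w one. Across the regions the 12w and 24w counts had a rank correlation of 0.85, which is a description over regions of differing length that share 2 libraries.

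The choice by overlap has an edge. The nearest P5 peak lay 3994 bp away for the median region, 2950 regions (9.59%) had one within 1000 bp and 96 had one within 200 bp. Just inside the rule, the region at chr16:23301053-23301514 had a P5 peak 3 bp away and 23.9 counts per 1000 nuclei at 12w, and the region at chr9:70986536-70987499 had one 5 bp away and 56 counts. Just outside it, the peak at chr1:73798917-73800265 overlapped a P5 peak by 1 bp and held 263 counts per 1000 nuclei. In all, 372 peaks found in all 3 libraries overlapped a P5 peak by less than 20 bp.

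Most adult-shared regions lay away from promoters. A peak within 1000 bp of a transcription start of the GENCODE annotation of GRCm38 was taken as a promoter peak, and 2388 regions (7.76%) were such peaks, against 23.6% of the peaks found in all 3 libraries, 7.37% of those shared with P5 only and 6.17% of those found at 12w only. A further 16885 (54.9%) had their centre in an intron, 1219 (3.96%) in an exon and 10276 (33.4%) between genes. Over all 12w peaks these shares were 45.5%, 3.7% and 33.8%, so only the intron share stood apart. The intron share was 41% for peaks found in all 3 libraries and 49.2% and 49.5% for the 2 other groups. From the edge of the peak the median distance to a transcription start was 11712 bp, beside 10125 bp for all 12w peaks. Over 50 kb from one lay 3710 regions (12.1%), beside 12.7% of all 12w peaks. Their GC content within 300 bp around the centre had a median of 46%, against 49.3% for peaks found in all 3 libraries. Every autosome held such regions, from 16.6% of the 12w peaks on chromosome 4 to 24.3% on chromosome 10.

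The nuclei that carried these regions were chiefly vascular. To ask this without letting the regions choose the nuclei, nuclei were clustered on the peaks found in all 3 libraries and named by marker genes. Vascular-like nuclei, the sum of pericyte-like, smooth-muscle-like and endothelial-like clusters and of clusters mixed among them, made up 405 of the 8788 P5 nuclei, which is 4.61% (interval 4.18 to 5.07). In the 12w library they were 60.1% (59.2 to 60.9), and in the 24w library 62.2% (61 to 63.4). Clusters that met no naming rule held 23.8% of the P5, 2.76% of the 12w and 21.2% of the 24w nuclei. Of the named nuclei, the vascular-like share was 6.05%, 61.8% and 78.9%. At 24w the share rested on the clustering, and at double the resolution it was 33.3% of all nuclei and 64.4% of the named ones. Like nuclei were not always named alike. An unnamed 24w cluster of 390 nuclei shared leading genes such as Alx4, Lipg and Ptgir with a 12w cluster of 728 named pericyte-like. Another of 392 at 24w was first named pericyte-like and lost the name, being shallow with no pericyte marker among its leading genes. The RNA libraries gave 6.04%, 60% and 82.4% of named cells. The vascular-like share thus differed between P5 and the adult libraries in the same contrast that chose the regions, and more vascular-like nuclei in a library and more open chromatin in each of them cannot be told apart from the peak lists.

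At 12w the adult-shared regions took 7.25% of all counts in nuclei, and at 24w the 30632 regions of the 24w list took 9.74%. In pericyte-like nuclei the share of a nucleus was 12.3% at the median, with the 10th and 90th percentiles at 10.5% and 13.7%, and it was 12.4% at 24w. Smooth-muscle-like nuclei had medians of 12.1% and 11.8%, and the 66 and 60 endothelial-like nuclei had 6.54% and 7.04%. Immature-neuron-like nuclei had 1.5% and 1.64%, astroglia-like nuclei, which hold both neural stem cells and astrocytes, 1.34% and 1.21%, and ependymal-like nuclei, from the ciliated lining of the ventricles, 3.18% and 3.13%. The 10th percentile of pericyte-like nuclei stood above the 90th percentile of each neural and glial class at both ages. In unnamed 24w nuclei, which had a median of 8505 counts, the median was 10.6%. Doublets were not called among nuclei.

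**Figure D1:**
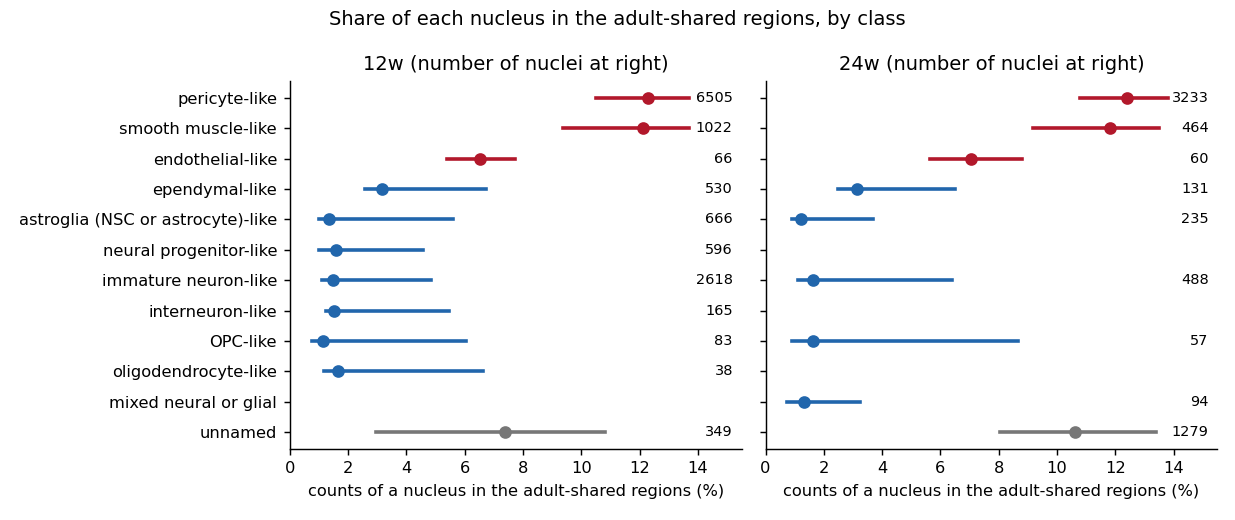
Share of the counts of each nucleus that fell in the adult-shared regions, in percent (horizontal axis), by class of nuclei at 12w and 24w; points are medians, bars run from the 10th to the 90th percentile of nuclei, and numbers at right are nuclei. Pericyte-like nuclei had medians of 12.3% and 12.4%, and immature-neuron-like nuclei 1.5% and 1.64%.

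The same lean was seen region by region. Counts were pooled over the vascular-like nuclei and over the neural and glial nuclei of a library and scaled by the total of each pool to CPM, the usual scale of counts per megacount. They were compared as a log2 ratio, with 1 count added to each, for regions with at least 20 counts, which 30205 of the 30768 regions had at 12w. The median log2 ratio was 2.33, with the 10th and 90th percentiles at 0.28 and 3.15, whereas it was -1.35 for the peaks found in all 3 libraries. At least 2-fold higher in vascular-like nuclei were 25285 regions (83.7%), beside 25.9% of all 12w peaks tested. At least 2-fold higher in neural and glial nuclei were 1687 regions (5.59%), beside 51.1% of all 12w peaks. At 24w the median was 2.29 over 29533 regions, with 24030 (81.4%) at least 2-fold higher in vascular-like nuclei beside 30.6% of all 24w peaks, and 1741 (5.9%) in neural and glial nuclei beside 43.4%. The median level of a region at 12w was 2.07 CPM in vascular-like and 0.552 in neural and glial nuclei. Peaks called at 12w and P5 but not at 24w lay on the opposite side, with a median of -3.55 and 39 of 19049 at least 2-fold higher in vascular-like nuclei. The peaks of a single adult library, also absent from the P5 list, differed in side. Those called at 24w only had a median of 1.72, with 2043 of 2723 (75%) at least 2-fold higher in vascular-like and 64 (2.35%) in neural and glial nuclei, so the vascular lean was not particular to the adult-shared regions. Those called at 12w only had a median of -3.17, with 1161 of 11238 (10.3%) and 8743 (77.8%). The vascular-like and the neural and glial pool held 140066012 and 142996076 counts at 12w, and 111446895 and 40173621 at 24w.

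**Figure D2:**
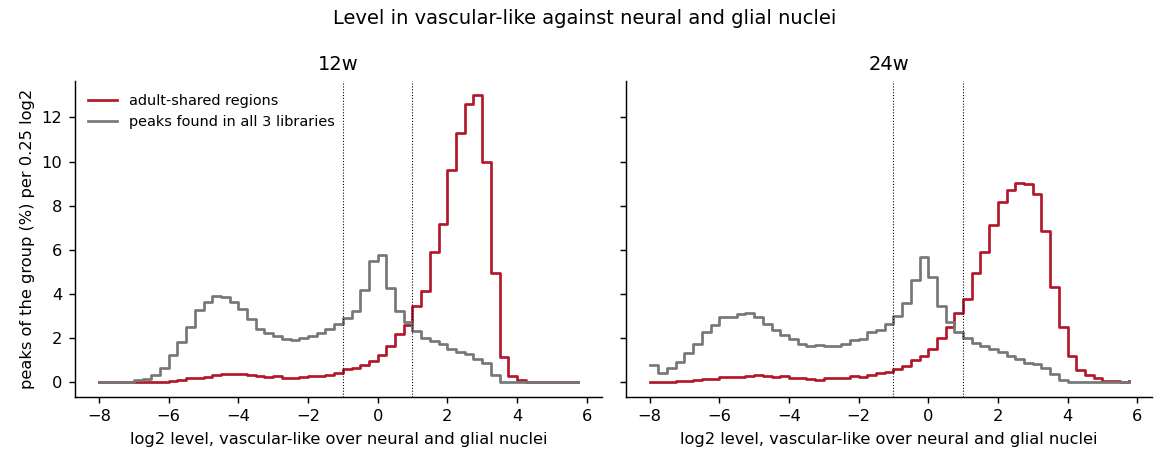
Log2 ratio of the pooled level in vascular-like over neural and glial nuclei (horizontal axis) against the percent of peaks per bin of 0.25 (vertical axis) for the adult-shared regions (red) and the peaks found in all 3 libraries (grey), at 12w and 24w; dotted lines mark 2-fold. The medians of the adult-shared regions were 2.33 and 2.29, and those of the grey peaks -1.35 and -1.64.

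Of the 29342 regions with enough counts at both ages, 23443 (79.9%) were at least 2-fold higher in vascular-like nuclei at both, beside 29.1% of all 12w peaks that overlapped a 24w peak. A further 1277 (4.35%) were at least 2-fold higher in neural and glial nuclei at both, beside 40.3% of those peaks. The call was opposite at the 2 ages for 24 and 10 regions, and the share of all peaks with opposite calls was not computed. The 23443 regions had a median length of 635 bp and a median of 38.9 counts per 1000 nuclei at 12w, and 7.86% were at a promoter. The 1277 regions had a median of 488 bp and 23 counts per 1000 nuclei, and 6.89% were at a promoter.

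Pericyte-like and smooth-muscle-like nuclei were compared over all regions with at least 20 counts in them together, whichever pool the region leaned to. At 12w 9471 of 29135 such regions (32.5%) were at least 2-fold higher in pericyte-like nuclei, beside 18.7% of all 12w peaks tested, and 5380 (18.5%) were at least 2-fold higher in smooth-muscle-like nuclei, beside 15% of all peaks. At 24w the counts were 10247 (36.4%, beside 22.2% of all peaks) and 5735 (20.4%, beside 18.4%). Of 27978 regions with enough counts at both ages, 7668 (27.4%) stood at least 2-fold higher in pericyte-like nuclei at both, beside 14.8% of all 12w peaks that overlapped a 24w peak, and 4397 (15.7%) in smooth-muscle-like nuclei, beside 11.6%. At least 2-fold in opposite directions at 12w and 24w were 52 regions, and the like share of all peaks was not computed. The naming of these nuclei, which went by the mean log2 ratio of the counts over a class's marker genes in a cluster to their mean over clusters, was close for some clusters. At 12w a cluster of 728 nuclei had a mean of 0.62 for pericyte and 0.6 for smooth muscle markers, and one of 469 nuclei had 0.67 and 0.79. At 24w a cluster of 447 nuclei, named pericyte-like by 0.58 and 0.46, shared leading genes such as Gpr20 and Map3k7cl with the 12w cluster of 469 that was named smooth-muscle-like. Without these 3 clusters, a choice made after seeing the data, 12264 regions (42.6%, beside 25.1% of all peaks) stood at least 2-fold higher in pericyte-like and 5819 (20.2%, beside 19.8%) in smooth-muscle-like nuclei at 12w. At 24w they were 10416 (37.2%, beside 22.9%) and 6196 (22.1%, beside 19.3%). The smooth-muscle-like share stood above that of peaks at large in each of these comparisons, by less than the pericyte-like share did. It was nearest at 12w without these 3 clusters (20.2% beside 19.8%), and farthest at both ages with all clusters (15.7% beside 11.6%).

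On the neural and glial side, 567 of the 1277 regions (44.4%) had their highest level in ependymal-like nuclei at 12w and 581 (45.5%) at 24w. Ependymal-like nuclei were 0.66% of the P5, 4.19% of the 12w and 2.17% of the 24w nuclei. Their share of nuclei thus also differed in the contrast that chose the regions, and its part in these counts was not tested. The RNA libraries did not repeat this order, and the ependymal-like share of cells was highest at P5 there. Ependymal-like cells were 295 of 12752 at P5, 34 of 5271 at 12w and 60 of 2794 at 24w. The same count was not made over all peaks leaning to neural and glial nuclei. Of the 1277 regions, astroglia-like nuclei led in 202 and 213, immature-neuron-like nuclei in 157 and 260, and neural-progenitor-like nuclei in 180 at 12w. In a comparison over fewer classes, without neural-progenitor-like and interneuron-like nuclei at 12w and without mixed nuclei at 24w, ependymal-like nuclei led in 5.46% and 6.33% of all adult-shared regions and in 12% and 13.2% of the peaks found in all 3 libraries. Astroglia-like nuclei led in 1.97% of the adult-shared regions and 13.7% of the peaks found in all 3 libraries at 12w, and immature-neuron-like nuclei in 2.54% and 26.4%. The mean level of these 1277 regions in ependymal-like nuclei was 6.19 and 5.96 CPM, and in pericyte-like nuclei 0.209 and 0.123.

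The 6 regions with the highest counts, by the mean of their ranks in the 12w and 24w tables, were broad and stood higher in vascular-like than in neural and glial nuclei. For 3 of them, at Rgs5, Atp13a5 and Adap2, the matching 24w peak was one joined to a P5 peak, so their place in this ranking rests in part on 24w counts from outside the list. The Adap2 region had the fewest 12w counts of the 6, at 6232, and ranked with 57316 counts of a 24w peak of 40612 bp. The region at chr7:46745079-46749304, between genes and 4211 bp upstream of the start of Saa1, a gene for an acute-phase apolipoprotein, held 1065 counts per 1000 nuclei at 12w (interval 1039 to 1090) and 2022 at 24w (1972 to 2074). Counts per nucleus also follow depth, and vascular-like nuclei had median counts of 17083 at 12w and 27879 at 24w. Scaled to each pool, the region lay at 83.6 CPM in vascular-like nuclei against 9.27 in neural and glial ones at 12w. At 24w it lay at 98.3 against 8.31. Among vascular-like nuclei it was a pericyte-like region, with 96.3 CPM there and 24.1 in smooth-muscle-like nuclei at 12w, and 110 and 22.9 at 24w. The region at chr16:29385241-29390350 lay 9063 bp upstream of Atp13a5, a transport ATPase used as a marker of brain pericytes, with 54.4 against 6.38 CPM at 12w. The region at chr1:169691285-169700461 lay 40351 bp downstream of the start of Rgs5, a regulator of G protein signalling that is abundant in pericytes, with 49.4 against 8.13. The remaining 3 were an intron of Adap2, where an antisense gene overlaps, at chr11:80168188-80174910, the stretch chr4:153651090-153658135 upstream of Ajap1, and chr13:49503176-49509440, whose centre lay 1439 bp from the start of Ecm2 within the overlapping gene Cenpp.

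The 6 regions with the strongest lean to vascular-like nuclei were 174 to 715 bp long. In an intron of Phldb2, which codes for a protein that anchors microtubules at the cell edge, the region at chr16:45752134-45752525 had 1.3 CPM in vascular-like nuclei at 12w (1.05 to 1.6) against 0.0629 (0.0189 to 0.153) in neural and glial ones. It was a smooth-muscle-like region, with 4.46 CPM there and 0.675 in pericyte-like nuclei at 12w, and 2.7 and 0.312 at 24w. The intergenic region at chr9:3982450-3982953 had the same form, with 8.1 in smooth-muscle-like and 0.51 in pericyte-like nuclei at 12w and 5.39 and 0.239 at 24w. In contrast, the region in an intron of Zranb3 at chr1:128034334-128035048 had 3.6 in pericyte-like and 0.257 in smooth-muscle-like nuclei at 12w, and 5.32 and 0.0729 at 24w. The region in an intron of Acvr2a, an activin receptor gene, at chr2:48851233-48851502 also stood higher in pericyte-like nuclei, with 1.09 against 0.257 at 12w. The remaining 2 were at chr7:133617717-133617890, 15645 bp upstream of Tex36, and at chr13:82548700-82548942, far from any protein-coding start. The former had 2.23 CPM in smooth-muscle-like and 0.277 in pericyte-like nuclei at 12w, and the latter 1.03 and 0.752.

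The 6 regions with the strongest lean to neural and glial nuclei were nearly silent in vascular-like nuclei. An intron of Adgrb3, an adhesion receptor of synapses, held the region at chr1:25685894-25686482 with 319 counts in neural and glial nuclei and 2 in vascular-like ones at 12w, and 122 and 0 at 24w. Its level was 9.73 CPM in astroglia-like and 1.25 in immature-neuron-like nuclei at 12w, and 8.83 and 1.26 at 24w. The region at chr6:135916041-135916746 in an intron of Grin2b, which codes for a subunit of the NMDA receptor, stood in the same order, with 8.21 and 2.57 at 12w and 7.58 and 0.808 at 24w. Lgi1, whose product is a secreted synaptic protein, had one region in an intron at chr19:38271043-38271728 and one 8308 bp upstream at chr19:38255874-38256582. The intronic one was as high in astroglia-like (3.87) as in immature-neuron-like nuclei (3.90) at 12w and held 542 neural and glial counts against 1 vascular-like count. An intron of Bicdl1 at chr5:115679884-115680270 held an ependymal-like region, with 13.4 CPM there at 12w and 10.9 at 24w and 0.176 and 0.415 in astroglia-like nuclei. The last, at chr13:102463101-102463442, lay far from any protein-coding start and had 186 neural and glial counts and 0 vascular-like counts at 12w.

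Whether a vascular 12w peak was on the list went with its count, summed over the peak. Peak length was not held fixed, and a longer peak can hold more counts and meets the 1 bp overlap more easily. The 40149 12w peaks at least 2-fold higher in vascular-like nuclei comprised 25285 adult-shared regions (63%), 13703 peaks that overlapped a P5 peak (34.1%) and 1161 found at 12w only. When they were split by count into quartiles, the share that overlapped a P5 peak was 4.72% in the lowest, 14.9% and 37.6% in the next ones and 79.4% in the highest. The adult-shared regions made up 83.8%, 85%, 62.4% and 20.6% of the same quartiles. Among the 79184 peaks at least 2-fold higher in neural and glial nuclei, 61.5%, 88% and 98.1% of the lower 3 quartiles and 19772 of 19776 peaks in the highest overlapped a P5 peak, and 1687 of them (2.13%) were adult-shared regions.

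**Figure D3:**
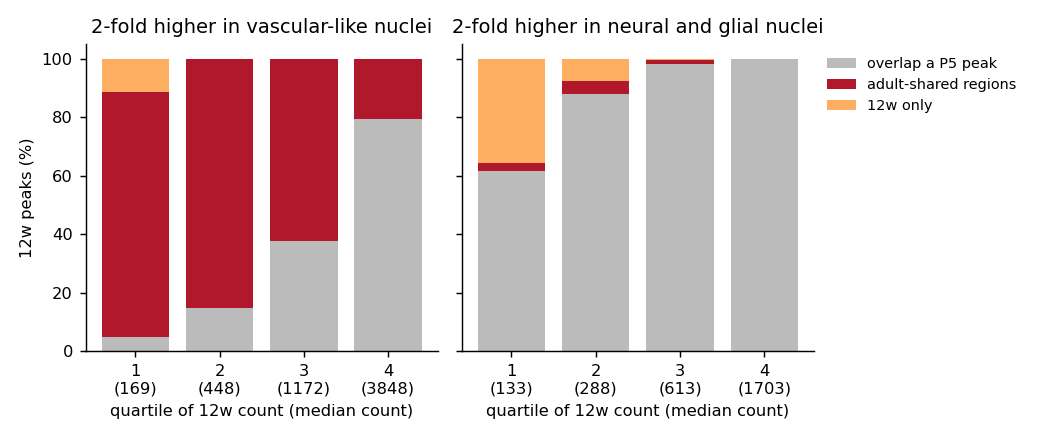
Percent of 12w peaks (vertical axis) that overlapped a P5 peak (grey), were adult-shared regions (red) or were found at 12w only (orange), by quartile of their 12w count (horizontal axis, median count in parentheses), for peaks at least 2-fold higher in vascular-like nuclei (left) and in neural and glial nuclei (right). On the left the grey share went from 4.72% to 79.4%, on the right it was 61.5% in the lowest quartile.

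The list was also set beside the P5 balance of vascular-like against neural and glial nuclei. For this, the 12w level of each peak in either pool was weighted by the counts that pool had at P5. Vascular-like nuclei gave 5.01% of the counts of named nuclei at P5 against 49.5% at 12w. The neural and glial pool thus carried most of the weight, and the part of doublets in its level was not tested. Classes within a pool were not weighted. OPC-like nuclei were 2394 of 6290 neural and glial nuclei at P5 and 83 of 4696 at 12w. With this weighting the median adult-shared region came to 123 counts, and the median peak found in all 3 libraries to 889. Peaks called at P5 had a median of 446 counts in the same nuclei, and the 10th percentile was 102. Of the adult-shared regions, 17675 (57.4%) reached that 10th percentile and 2595 (8.43%) reached the P5 median, against 98.7% and 75.1% of the peaks found in all 3 libraries and 80% and 7.55% of those shared with P5 only. Of the peaks found at 12w only, which leaned to neural and glial nuclei, 49.7% and 1.28% reached these levels. The share depends on the level chosen, and 85.8% of the adult-shared regions reached the 5th percentile of the P5 peaks and 98.5% the 1st. For the peaks found in all 3 libraries the count observed at P5 differed from the weighted one by a median log2 ratio of -0.09. The weighting scaled each pool to its P5 total, and these peaks held 89.3% of the 12w counts. This value is therefore no check of the weighting, and its spread was not computed. These peaks were all called at P5, so the value does not cover regions absent from the P5 list. The P5 table holds no counts for the adult-shared regions themselves, so their level at P5, in vascular-like nuclei or others, was not measured, and a region that was open in P5 mural cells and too rare to be called cannot be told apart from a region that was closed.

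Of the 30768 regions, 18450 (60%) lay over a protein-coding gene or the 2 kb upstream of it. Of 20780 such genes, 5733 (27.6%) held at least 1 region, 386 held at least 10 and 117 at least 20. The gene models with most regions were long ones, so the count is given with the number of all 12w peaks over the gene. Gm20388, a read-through model of 4435 kb that spans many genes, led with 83 of its 715 peaks (11.6%), and the long model of Fgfr2, a fibroblast growth factor receptor, had 58 of 355 (16.3%). For the other leading genes the share was above the 19% over all protein-coding genes. Dlc1, a GTPase-activating protein, had 65 of 91 peaks (71.4%), Ptprk, a receptor tyrosine phosphatase, 64 of 89 (71.9%), and Mast4, a microtubule-associated kinase, 63 of 111 (56.8%). Prkg1, the cGMP-dependent kinase that relaxes smooth muscle, had 64 of 114 (56.1%), and Cacna1c, the pore of the L-type calcium channel, 56 of 130 (43.1%). Ebf1, a transcription factor gene of pericytes, had 56 of 87 (64.4%), and Rora, the gene of a nuclear receptor of the circadian clock, 48 of 156 (30.8%). Atp13a5 had 43 of 50 (86%) in 147 kb, and Rapgef5, Arhgap42 and Plxdc2 had 45, 44 and 39. The remaining leading genes were Plcl1, Fry, Gpc6, Pakap, Rbms3, Foxp1 and Gmds, with 40 to 53 regions each. Pakap overlaps the Palm2 and Akap2 models and shares its regions with them. When each region was given to the protein-coding gene with the nearest start instead, 11 of the 20 leading genes stayed, Ebf1 led with 86, and Zeb2 and Cdh2 were among those that entered, with 65 and 64.

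**Figure D4:**
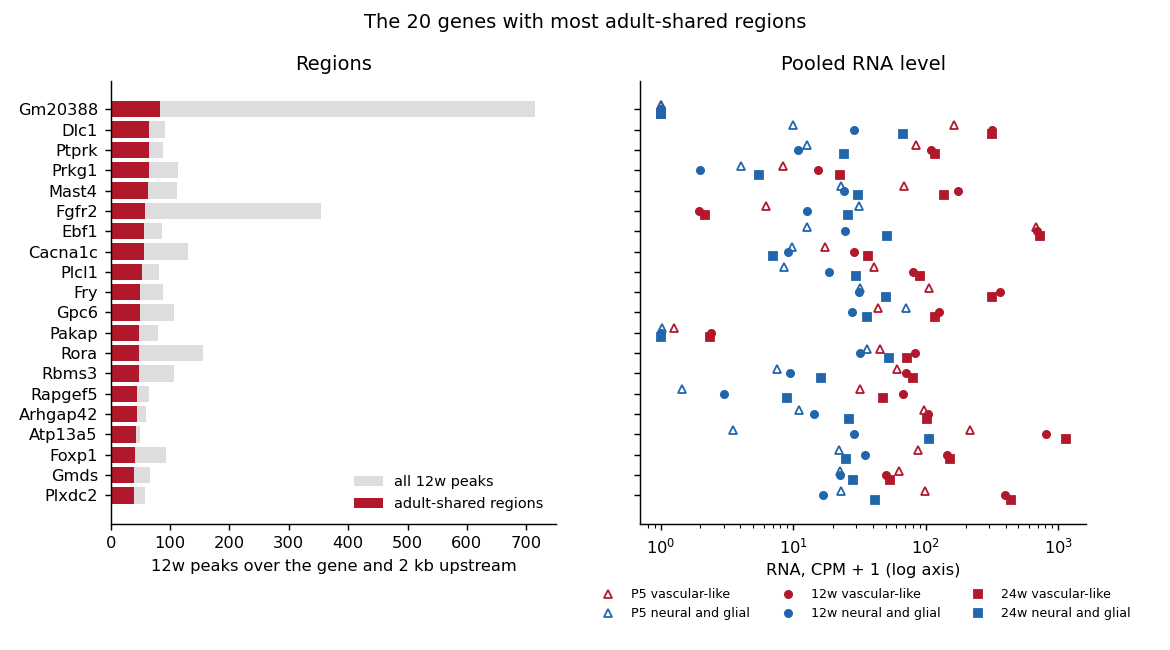
Left, the number of 12w peaks over each gene and the 2 kb upstream (grey) and of adult-shared regions among them (red) for the 20 protein-coding genes with most regions; right, their pooled RNA in CPM plus 1 on a log axis, in vascular-like (red) and neural and glial cells (blue) at P5, 12w and 24w, 1 library each. Dlc1 had 65 regions of 91 peaks and 314 CPM in vascular-like against 27.7 in other cells at 12w.

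Per length, Ttpal with 32.1 regions per 100 kb and Atp13a5 with 28.9 were among the 10 densest genes. Iigp1, an interferon-induced GTPase, had 5 of 5 peaks, Sept7, a septin, 13 of 14, and Slc22a8, an organic anion transporter of brain vessels, 5 of 6. Tnip2, Lztfl1, Ppp1r12c and Zbtb34 had 5 or 6 regions each. By stretches of 500 kb, a split made after the values were seen, the median was 4 regions and the richest stretches were those of Dlc1 with 69, Ebf1 with 60, and Ptprk and Pakap with 58 each. On the neural and glial side regions were scattered, and no gene held more than 3 of the 1277. Among the genes with 3 were Gtdc1, Robo2, Ptprm, Zbtb20, Asic2 and Lsamp, named here after their values were seen.

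Gene groups of mural cells held a larger part of their peaks on the list than genes at large, and the lists were drawn up with earlier results of these data known, so they are not independent evidence. Of 18 mural receptors and ion channels 12 held a region, with 147 of 286 peaks (51.4%) beside 19% for all genes. Abcc9, the regulatory subunit of the pericyte potassium channel, had 19 of 25 peaks, Itga1, a collagen-binding integrin, 16 of 27, and Ednra, the endothelin receptor, 13 of 16. Of 17 mural transcription factors 7 held a region, with 91 of 195 peaks (46.7%). Of the 91 regions 56 were at Ebf1, and the median gene of this list held 0. Mef2c had 14 of 29 peaks, Prrx1 7 of 14 and Ebf2 5 of 26. The contractile genes had 68 of 163 (41.7%), with 22 of 34 at Cald1, a regulator of actomyosin, 17 of 27 at Vcl, the gene of vinculin, and 9 each at Synpo2 and Mylk. The basement membrane and matrix genes had 107 of 272 (39.3%), with 33 of 61 at Lama2, 14 of 22 at Lama4 and 12 of 28 at Lamc1, all laminin chains, and 13 of 21 at Nid1, the gene of nidogen. Endothelial genes had 37 of 102 (36.3%), with 11 of 26 at Flt1 and 8 of 10 at Tek, which code for vascular receptors, and 4 each at Kdr and Emcn. Clock and ROR genes had 65 of 236 (27.5%), of which 48 were at Rora, 4 at Clock, 3 at Cry1 and 2 at Per1. Interferon response genes had 5 of 21, among them 2 at Stat2 and 1 each at Ifit3 and Ifit2. Mature neuron and synapse genes had 17 of 221 (7.69%), with 5 at Grin2a, 4 at Syt1 and 2 each at Camk2a and Snap25. The 11 adult astrocyte genes with 45 peaks and the 7 myelin genes with 37 peaks held 0 regions. The RNA of these lists is given as a description, since the cells were named by marker genes that include Abcc9, Kcnj8 and Pdgfrb of the receptor list, Acta2, Tagln, Myh11 and other contractile genes, and Aqp4, Gja1 and Slc1a2 of the astrocyte list, so that part of the counts was fixed by the naming. In RNA at 12w, all 15 matrix genes tested, all 13 contractile genes tested and all 17 mural receptor genes tested were at least 2-fold higher in vascular-like cells, beside 15.9% of all genes. At 24w these were 12 of 15, 12 of 13 and 18 of 18, beside 14.8% of all genes, and in the P5 library 11 of 15, 12 of 13 and 16 of 18, beside 11.8%. All 11 astrocyte genes were at least 2-fold higher in neural and glial cells in each library, beside 23.7% of all genes at P5, 26.1% at 12w and 23.5% at 24w. Other lists with regions did not share the vascular lean in full. At 12w 2 of 15 clock and ROR genes were at least 2-fold higher in vascular-like and 6 in neural and glial cells. For interferon response genes it was 5 and 1 of 11, and for mature neuron and synapse genes 1 and 9 of the 10 tested.

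RNA, which the rule did not use, stood on the same side. Pooled UMIs of vascular-like and of neural and glial cells were compared as CPM for genes with at least 20 UMIs. Of the 20 genes with most regions, 17 were at least 2-fold higher in vascular-like cells at 12w and 15 at 24w, beside 15.9% and 14.8% of all genes tested. Gm20388 and Pakap had too few UMIs to compare. In the P5 library most of the others were also at least 2-fold higher in vascular-like cells, beside 11.8% of all genes there. The exceptions at P5 were Cacna1c, Rora, Gpc6 and Fgfr2, with log2 ratios of 0.93, 0.35, -0.72 and -2.46. In order of age, Dlc1 had 161 (148 to 174), 314 (300 to 328) and 313 (298 to 329) CPM in vascular-like cells, against 8.91, 27.7 and 66.8 in neural and glial cells. Ebf1 had 679, 687 and 729 CPM in vascular-like cells against 11.8, 23.6 and 49.7, and its vascular-like levels at P5 and 12w had overlapping intervals. Atp13a5, itself among the markers that named the cells, had 215, 806 and 1139 CPM against 2.51, 27.8 and 105. Plxdc2, a plexin-like receptor, had 98.2, 396 and 437 against 21.8, 15.8 and 40.7, and Fry 104, 361 and 316 against 30.7, 30.4 and 49.2. The levels of Dlc1, Ebf1 and Atp13a5 in neural and glial cells stood in the order of the vascular-like share of the RNA libraries (6.04%, 60% and 82.4% of named cells), and the part of free RNA and of doublets in them was not tested. Fgfr2 went the other way, with 5.25, 0.938 and 1.17 CPM in vascular-like against 30.3, 11.7 and 25.1 in neural and glial cells. Gm20388 had 0 UMIs in both pools of each library. Prkg1 was low in RNA, with 14.5 CPM in vascular-like cells at 12w.

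The more regions a gene held, the more often its RNA was vascular. Genes without a region were at least 2-fold higher in vascular-like cells in 10.7% of cases at 12w (820 of 7639), genes with 1 to 4 regions in 19.8%, with 5 to 9 in 35.8%, with 10 to 19 in 46.8% and with 20 or more in 75% (84 of 112). At 24w the shares were 10.1%, 18.1%, 33.2%, 40.2% and 63.4%. For genes with 20 or more peaks found in all 3 libraries, which are also long, the share was 22.9% at 12w and 19.4% at 24w. The share at least 2-fold higher in neural and glial cells went from 29.1% without a region to 7.14% with 20 or more at 12w, beside 26.1% of all genes, and from 25.7% to 6.25% at 24w, beside 23.5%. Genes of one stretch share regions and are not independent.

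Within vascular-like cells, the adult libraries were also set beside P5. Of the genes with 20 or more regions, 41 of 109 (37.6%) were at least 2-fold higher at 12w than at P5 and 3 (2.75%) were at least 2-fold lower, beside 15.3% of all genes higher and 13.3% lower. At 24w 45 of 111 (40.5%) were higher and 3 (2.7%) lower, beside 18.3% of all genes higher and 12.5% lower. For genes with 20 or more peaks found in all 3 libraries the shares higher were 12.9% and 14.5%, and the shares lower 27.4% and 25.5%. Both adult comparisons used the same P5 library of 638 vascular-like cells. Other genes with vascular RNA were not set beside these as a group, and the part of free RNA in the vascular-like pools was not tested. In RNA, unlike ATAC, the vascular-like pool also took in small fibroblast-like clusters of 18, 11 and 9 cells, which gave 3.58%, 0.48% and 0.489% of its UMIs in order of age. Without them, a choice made after seeing the data, 40 of 109 genes were at least 2-fold higher at 12w, beside 15.4% of all genes, and 45 of 111 at 24w, beside 18.5%. A shift in the classes pooled as vascular-like cannot be told apart from a shift within them. Not all genes with regions were higher in the adult. Some named genes with fewer than 20 regions were lower. In vascular-like cells Nid1, with 13 regions, had 302 CPM in the P5 library and 131 and 133 CPM in the adult ones. Lama4, with 14 regions, had 109, 52.4 and 65.9 CPM, and Zbtb34, with 6, had 39.4, 16.9 and 12.6. Arhgap42, with 44 regions, stood at 96.3, 103 and 101 CPM, with overlapping intervals at all ages.

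Motifs were searched within 300 bp around the centre, on both strands, and each was set beside the same letters read backwards. MEF2 motifs, bound by a family of muscle and vascular factors, were found in 925 regions, 3.01% (2.82 to 3.2) beside 1.25% of all 12w peaks, and the backward letters in 0.371% and 0.328%. EBF motifs (TCCCNNGGGA) were found in 1090 regions, 3.54% (3.34 to 3.76) beside 1.7%, and backwards in 0.605% and 0.789%. The ROR core (AGGTCA), which many nuclear receptors also bind, was found in 25.8% (25.3 to 26.3) beside 17.6%, with 20.7% and 19.4% backwards. Forkhead motifs (TGTTTAC) were found in 6.84% beside 4.71%, ETS motifs (CAGGAAG) in 18.9% beside 14.4% and TEAD motifs (GGAATG) in 21.4% beside 17.6%. The backward letters of these 3 differed less, with 6.73% beside 6.32%, 5.03% beside 4.53% and 8.78% beside 8.31%. AP-1 motifs (TGACTCA or TGAGTCA) were found in 7.8% beside 6.15%, CArG boxes in 2.1% beside 1.65% and glucocorticoid response elements in 0.205% beside 0.147%. The backward letters of these 3 stood nearly as far apart, with 5.95% beside 5.01%, 1.57% beside 1.29% and 0.205% beside 0.152%. RBPJ motifs (GTGGGAA) were found in 8.29% beside 7.42%, and backwards in 4.62% beside 4.71%. Below the share of all peaks were the NFI core (TTGGC), at 49.7% beside 55.7% with the backward letters also lower at 9.9% beside 12.5%, the NeuroD-type E-box (CAGATG), at 26% beside 27.6% and 7.77% beside 7.16% backwards, SOX motifs (ACAATG), at 14.4% beside 15% and 10.5% beside 9.34% backwards, and CTCF motifs, which mark loop anchors open in most cell types, at 0.315% (0.256 to 0.384) beside 2.54% and 0.0065% beside 0.0101% backwards.

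**Figure D5:**
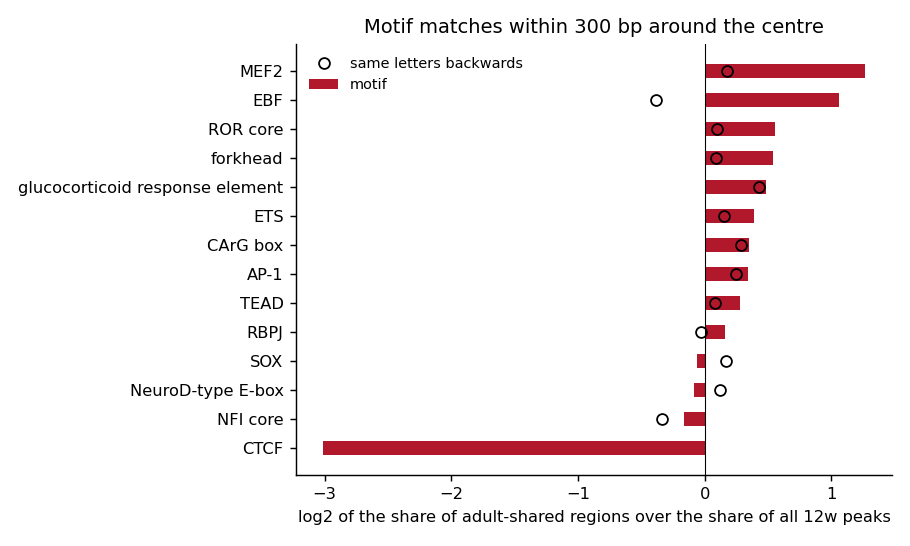
Log2 of the share of adult-shared regions with a motif over the share of all 12w peaks with it (bars, horizontal axis), for 14 motifs searched within 300 bp around the peak centre, and the same ratio for the letters read backwards (circles, drawn where over 0.1% of all peaks matched). MEF2 and EBF had the longest bars to the right, with 3.01% beside 1.25% and 3.54% beside 1.7% of peaks.

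Between the 2 sides of the list several motif shares differed much as they did among peaks found in all 3 libraries. Regions at least 2-fold higher in vascular-like nuclei at both ages had NFI cores in 47.2%, ETS motifs in 19.9% and EBF motifs in 3.97%, and regions on the neural and glial side had them in 63.7%, 10.6% and 1.1%. Among 12w peaks found in all 3 libraries, those at least 2-fold higher in vascular-like nuclei had 47.7%, 18.5% and 2.83%, and those at least 2-fold higher in neural and glial nuclei 60.9%, 12% and 0.926%. MEF2 motifs stood at 3.49% on the vascular and 0.783% (0.376 to 1.44) on the neural and glial side, beside 1.85% and 0.596% of those peaks. The ROR core was found in 26.1% on the vascular side beside 20.9%, and in 23.7% (21.4 to 26.2) on the neural and glial side beside 13.9%. SOX and AP-1 motifs on the neural and glial side stood at 21% and 11%, beside 16.7% and 5.58% of the peaks found in all 3 libraries with the same lean. Read backwards, the SOX letters stood nearly as far apart in proportion, at 11.4% beside 9.4%. The AP-1 letters stood less far apart backwards, at 5.56% beside 4.72%.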

How the data were processed

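Single-cell ATAC-seq and single-cell RNA-seq were analysed in 1 library per age (P5, 12w, 24w). The authors deposited peak lists called per library and count tables of peaks by barcode and genes by barcode: the matrix headers name Cell Ranger ATAC 1.2.0, and the submitters' processing notes list Cell Ranger 2.2.0, Seurat 4.1.0 and the mm10 build. Between 89.2% and 91.8% of the deposited peak counts in a library were even, so Poisson intervals were computed on fragments, with 2 counts each. The members and gene lists were chosen with earlier results of these data known.

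Nuclei were barcodes with over 3000 and under 100000 counts in peaks, and RNA cells were kept from 1000 UMIs and 500 detected genes upward where mitochondrial UMIs made up no more than 10%. RNA doublets were removed with Scrublet (932, 80 and 3 cells), and none were called among nuclei. Nuclei were clustered with leidenalg 0.10.2 at resolution 1 on peaks found in all 3 libraries and named from marker genes, under a rule refined after the clusters were seen. Genes came from GENCODE M21 and sequence from the RefSeq copy of GRCm38.p6. The named genes were the 20 with most regions, the 10 with most per 100 kb among those with at least 5, and up to 4 per list, of which some are not reported here. The named regions were 6 by count and 6 by lean to each side. Scripts used Python 3.11.15 and scanpy 1.11.5 and were tested on simulated data. With 1 library per age no test was possible, and 2-fold is a rule of size. The number of mice per library is not given in the sources used here.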

Additional observations from a re-analysis of the deposited data

Results flagged for a closer look

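In 2 of the named genes the RNA of vascular-like and of neural and glial cells stood in opposite order in the adult libraries, and neither difference was tested, since each age had 1 library. Synpo2, a contractile gene with 9 regions, had a log2 ratio of vascular-like over neural and glial cells of 1.02 at 12w, from 28 and 17 UMIs, and of -0.05 at 24w, from 54 and 21 UMIs. Its levels were 4.38 CPM (2.91 to 6.33) in vascular-like and 2.11 (1.23 to 3.38) in neural and glial cells at 12w, and 10.5 (7.89 to 13.7) and 10.6 (6.53 to 16.1) at 24w. Per1, a clock gene with 2 regions, had a log2 ratio of 0.13 at 12w and -0.11 at 24w, from 13.4 CPM (10.8 to 16.6) and 12.3 (10 to 15) at 12w and 16.1 (12.9 to 20) and 17.1 (11.8 to 23.9) at 24w. The counting intervals of the pools overlapped in each of these cases, so no order is shown.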

How the results depend on the processing

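The list shrank to 13039 regions when no P5 peak was allowed within 5000 bp. After weighting to the P5 balance of the 2 pools, an alternative chosen after seeing the data, 17675 regions reached the 10th percentile of P5 peaks. The share of counts in the regions at 12w was 7.23% for nuclei over 5000 counts, 7.32% for all barcodes and 8.86% with each peak counted once per nucleus. At 24w these shares were 9.73%, 9.42% and 12.3%. The vascular-like share of nuclei at P5 was 4.02% at double resolution, and at 24w it was 65.8% for nuclei over 5000 counts, 50.2% at 0.5 of the resolution, 33.3% at double resolution and 55.6% when clustered on all peaks. Of named nuclei, which was added after seeing the data, it was 6.05%, 61.8% and 78.9% by age, and 5.61%, 61.5% and 64.4% at double resolution. The median log2 ratio was 2.44 at 12w and 2.45 at 24w when scaled to the peaks found in all 3 libraries, and 2.18 and 2.06 when counted once per nucleus. At 24w it was 2.24 without a count minimum and 1.95 at double resolution. The promoter share was 13.1% within 2000 bp and 4.57% with protein-coding genes only. Of the 20 genes with most regions, 11 stayed when regions went to the nearest start. Within 500 bp, 2 motifs in place of 4, and within 200 bp 6, were at least 1.4 times as frequent as over all peaks, and the SOX share over that of all peaks was 1 in place of 0.959. The cause of these shifts was not tested. In 47 recalculations of the main results, the value stayed within its interval or, for counts, within 1.5 times the one reported. The 200 bp window, which lay at that limit, is among these 47. In 29 other recalculations of the main results the value moved further. No paired analysis was possible because each age had 1 library. Depth limits small classes, such as the 66 and 60 endothelial-like nuclei and the 57 OPC-like nuclei at 24w, where the median region had 0 counts.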
